A study of Caenorhabditis elegans with 4 samples.

Results

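The sqv genes of the nematode Caenorhabditis elegans encode enzymes and a transporter that build glycosaminoglycans, and they are named for the squashed vulva of their mutants. The group described here is sqv-1 to sqv-8, taken by gene symbol from the platform's probe annotation and kept where a value was present on 3 or more of 4 arrays. Of these 8 genes, 6 were measured, each by 1 probe with values on 4 arrays: sqv-1, sqv-3, sqv-4, sqv-5, sqv-7 and sqv-8. No probe was matched to sqv-2 or sqv-6, which are not analysed here. In all, 19214 features were tested, of which 15059 were named genes.

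Glycosaminoglycans are long sugar chains carried by proteoglycan core proteins. Their assembly uses activated sugars, some of which are made in the cytosol and carried into the Golgi. There a short linker of xylose, galactose and glucuronic acid is built on the core protein, and the chain is then extended as chondroitin or as heparan sulfate. In C. elegans, chondroitin made by the sqv enzymes is needed for the vulval lumen to open during hermaphrodite larval development, and chondroitin from the mother is needed for the early embryo to divide and for its eggshell. The sqv genes thus act both in a hermaphrodite organ and in oocytes and embryos, and the genes needed for chains of both kinds act before the point where chondroitin and heparan sulfate part.

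Adult males carrying a him-5 mutation, which raises the share of males among the offspring, were compared with wild-type mixed-stage reference RNA on arrays of 2 colours. Each of the 4 arrays held RNA of a different male preparation, numbered 1 to 4 in the labels, beside reference RNA, and these preparations form the only group. Sex, genotype and stage differ together between the sides of the ratio and cannot be told apart. Nothing in the labels tells separate cultures from repeat extractions, and p-values here cover only the spread between preparations, which may be technical. Values are log2 ratios of males over reference; that direction is likely from the order of the channels and the sample descriptions, but no dye is named. In the same direction, 24 of 24 sperm markers were higher in males, with list medians of 4.14 to 5.04 on the 4 arrays, and 20 of 21 oocyte markers were lower. Most of these sperm markers are of the msp gene family, so their readings may not be separate. Both lists were chosen with earlier results of these data known. Over all features, 22.1% were higher and 23.6% lower.

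All 6 measured sqv genes were lower in males, by 1.65-fold to 2.84-fold, and none was higher. The mean log2 ratio was lowest for sqv-1, which makes UDP-xylose, and for sqv-7, which carries sugar nucleotides into the Golgi. It was closest to 0 for sqv-4, which makes UDP-glucuronic acid. Each of the 24 single values (6 genes on 4 arrays) lay below 0. A gene was called where limma's moderated test of the mean ratio against 0 gave a Benjamini-Hochberg adjusted p under 0.05 over all 19214 features. By that rule 23.6% of all features were lower in males and 22.1% higher, and 29.5% lay below 0 on all 4 arrays. The median of the 6 mean ratios was -1.11, against 0.05 over all features. With whole animals as the source, fewer cells of a type and less RNA per cell cannot be told apart.

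**Figure D1:**
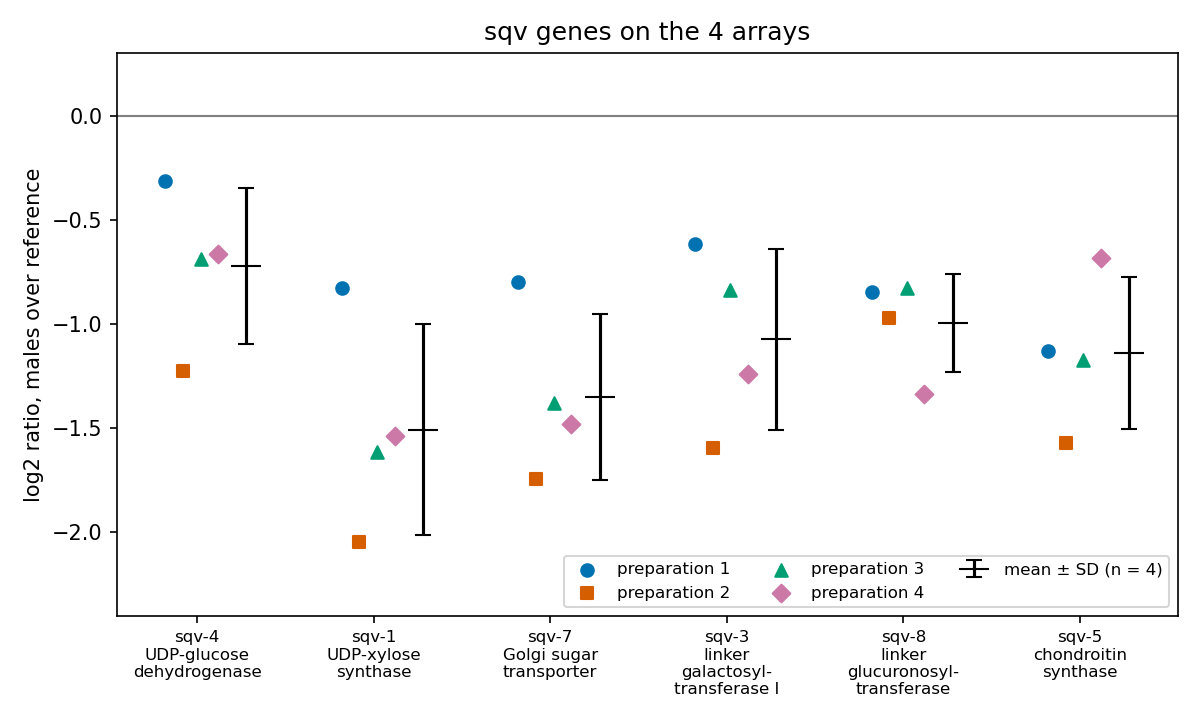
Log2 ratios of males over reference for the 6 measured sqv genes, in the order of their description below, with 1 point per preparation and the mean ± SD over the 4 arrays. Every point lies below 0; preparation 2 is lowest for 5 of the genes, and preparation 1 is highest for 4.

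Activated sugars are made by the enzymes of sqv-4 and sqv-1. sqv-4 encodes the dehydrogenase that turns UDP-glucose into UDP-glucuronic acid, a building block of the linker and of both kinds of chain. Its log2 ratios were -0.31, -1.22, -0.69 and -0.66 on preparations 1 to 4. Preparations 3 and 4 lay close together, with preparation 1 nearer to 0 and preparation 2 further from it. The mean was -0.72 ± 0.38 (SD, n = 4, limma adjusted p = 0.021), 1.65-fold lower in males, with a 95% confidence interval of -1.18 to -0.26. Without preparation 3 the call was lost, although the mean hardly moved (-0.73, adjusted p = 0.08).

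sqv-1 encodes the decarboxylase that converts UDP-glucuronic acid into UDP-xylose, the donor of the first linker sugar. Its ratios were -0.83, -2.05, -1.61 and -1.54 on preparations 1 to 4. Preparation 1 was again the least negative, and on preparations 2 to 4 sqv-1 was the lowest of the 6 genes. The mean was -1.51 ± 0.50 (SD, n = 4, limma adjusted p = 0.00171), 2.84-fold lower in males, with an interval of -2.03 to -0.98. Of the 6 genes, sqv-1 had the lowest mean and sqv-4 the highest. On each array the ratio of sqv-1 lay below that of sqv-4, by 0.52 to 0.93 on the log2 scale.

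sqv-7 encodes a Golgi membrane transporter that brings UDP-glucuronic acid, UDP-galactose and UDP-N-acetylgalactosamine to the enzymes inside. Its ratios were -0.80, -1.74, -1.38 and -1.48 on preparations 1 to 4. The arrays fell in the same order as for sqv-1 at both ends, with preparation 1 highest and preparation 2 lowest. The mean was -1.35 ± 0.40 (SD, n = 4, limma adjusted p = 0.00172), 2.55-fold lower in males, with an interval of -1.82 to -0.88.

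The linker itself is represented by sqv-3 and sqv-8, since the xylosyltransferase gene sqv-6 and the second galactosyltransferase gene sqv-2 had no matched probe. sqv-3 encodes the galactosyltransferase that adds the first galactose, and its ratios were -0.61, -1.60, -0.84 and -1.24 on preparations 1 to 4. Its mean was -1.07 ± 0.43 (SD, n = 4, limma adjusted p = 0.00546), 2.10-fold lower in males, with an interval of -1.56 to -0.58. Here too preparation 1 was the highest and preparation 2 the lowest. sqv-8 encodes the glucuronosyltransferase that completes the linker, and its ratios were -0.85, -0.97, -0.83 and -1.34. Preparations 1 to 3 lay within a narrow band and preparation 4 below them, so that its spread was the smallest of the 6 genes. The mean was -0.996 ± 0.24 (SD, n = 4, limma adjusted p = 0.00339), 1.99-fold lower in males, with an interval of -1.40 to -0.59.

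Chain extension is represented by sqv-5, the chondroitin synthase gene. Its ratios were -1.13, -1.57, -1.17 and -0.69 on preparations 1 to 4. Preparation 2 was the lowest, as for most of the other genes, but preparation 4 and not preparation 1 was the highest. The mean was -1.14 ± 0.36 (SD, n = 4, limma adjusted p = 0.0031), 2.20-fold lower in males, with an interval of -1.60 to -0.68. On preparation 1, sqv-5 was the lowest of the 6 genes.

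In the order of their means from the lowest, the genes were sqv-1, sqv-7, sqv-5, sqv-3, sqv-8 and sqv-4. Most neighbours in that order did not differ beyond their spread. The within-array difference had a single sign on all 4 arrays for 1 of 5 neighbouring pairs, sqv-1 minus sqv-7 at -0.16 ± 0.13 (SD, n = 4). The difference was -0.21 ± 0.46 for sqv-7 minus sqv-5, -0.07 ± 0.47 for sqv-5 minus sqv-3, -0.08 ± 0.38 for sqv-3 minus sqv-8, and -0.27 ± 0.42 for sqv-8 minus sqv-4 (SD, n = 4). Further apart in the order, sqv-1 minus sqv-4 was -0.78 ± 0.18 and sqv-7 minus sqv-4 was -0.63 ± 0.16 (SD, n = 4). Of all 15 pairs, 7 had a single sign on the 4 arrays. An exact two-sided sign-flip test of such a difference cannot go below p = 0.125 with 4 arrays, so no pair could pass at 0.05.

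The arrays did not rank alike for all 6 genes. For 4 of them (sqv-1, sqv-3, sqv-4 and sqv-7) preparation 1 was the highest and preparation 2 the lowest, whereas preparation 4 was the highest for sqv-5 and the lowest for sqv-8. The median of the 6 genes was -0.81, -1.58, -1.01 and -1.29 on preparations 1 to 4, while the median of all features stayed between -0.01 and 0.07. Preparation 2 was the array on which ribosomal protein genes (63 tested) stood highest, with a median of 1.10 there and 0.04 to 0.33 on the others. Chemoreceptor genes, taken by symbols that start with sr (957 tested), stood highest there too, at 0.76 against 0.14 to 0.27. That pattern of symbols also takes in other genes, such as the transporter gene srf-3. Whether either class has a part in the low sqv values of preparation 2 was not tested. By the dates in their titles, preparations 1 and 2 form an earlier pair of arrays and preparations 3 and 4 a later one. Over the earlier pair the means of the 6 genes ran from -1.44 for sqv-1 to -0.77 for sqv-4, and over the later pair from -1.58 for sqv-1 to -0.68 for sqv-4. Each gene lay below 0 in both pairs.

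A rank within an array does not depend on how that array was centred. On preparation 1, between 6.67% and 32.6% of all tested features had a lower ratio than a given sqv gene. The corresponding ranges were 3.18% to 20.01% on preparation 2, 3.79% to 20.5% on preparation 3 and 5.44% to 21.7% on preparation 4. By the mean over arrays, 4.13% of features lay below sqv-1, 5.88% below sqv-7 and 19.3% below sqv-4. Each sqv gene thus stood below the median feature on every array.

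**Figure D2:**
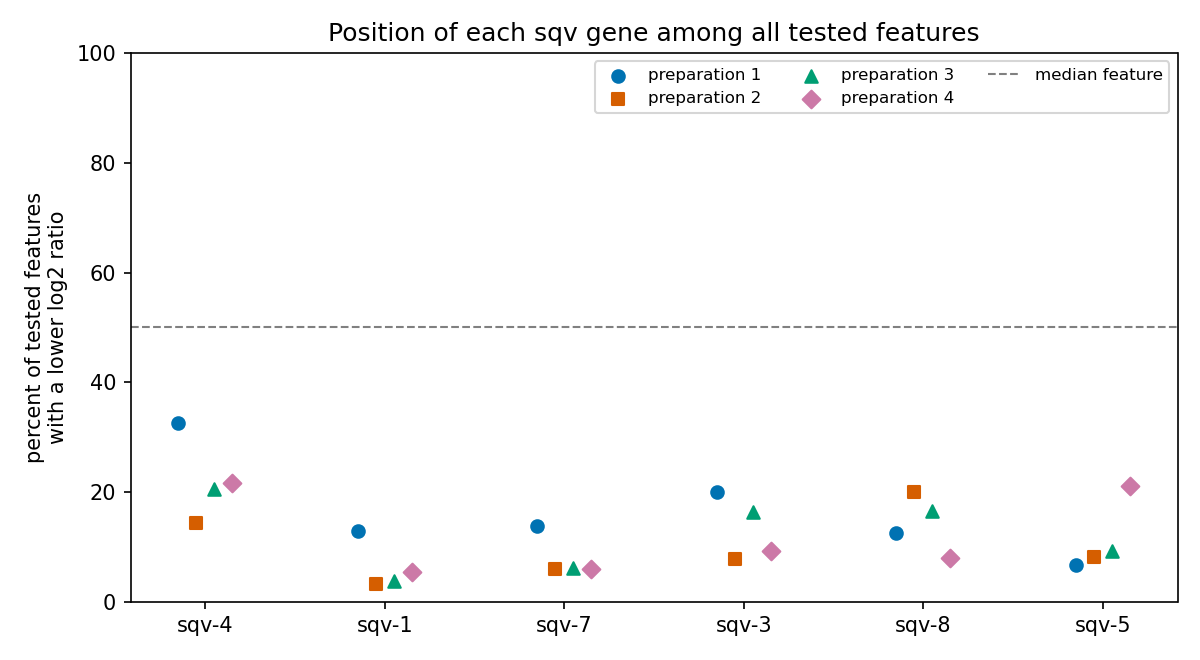
Percent of all tested features whose log2 ratio was lower than that of each sqv gene, with 1 point per preparation. All points lie well under the dashed line of the median feature, from 3.18% for sqv-1 on preparation 2 to 32.6% for sqv-4 on preparation 1.

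On the size of the change, 4 of the 6 genes (sqv-1, sqv-7, sqv-5 and sqv-3) were called lower and at least 2-fold down, against 12.1% of all features. Centring the arrays on ribosomal protein genes moved the median of all features by -0.40, and centring on chemoreceptor genes, expressed mainly in sensory neurons, moved it by -0.34. Both centrings shift every feature down, so they do not test the direction of the 6 sqv genes, which were called lower there too. The amounts subtracted differed between arrays, which can still end a call. For sqv-4 the call was kept with the ribosomal centring, at a limma adjusted p of 0.0406.

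**Figure D3:**
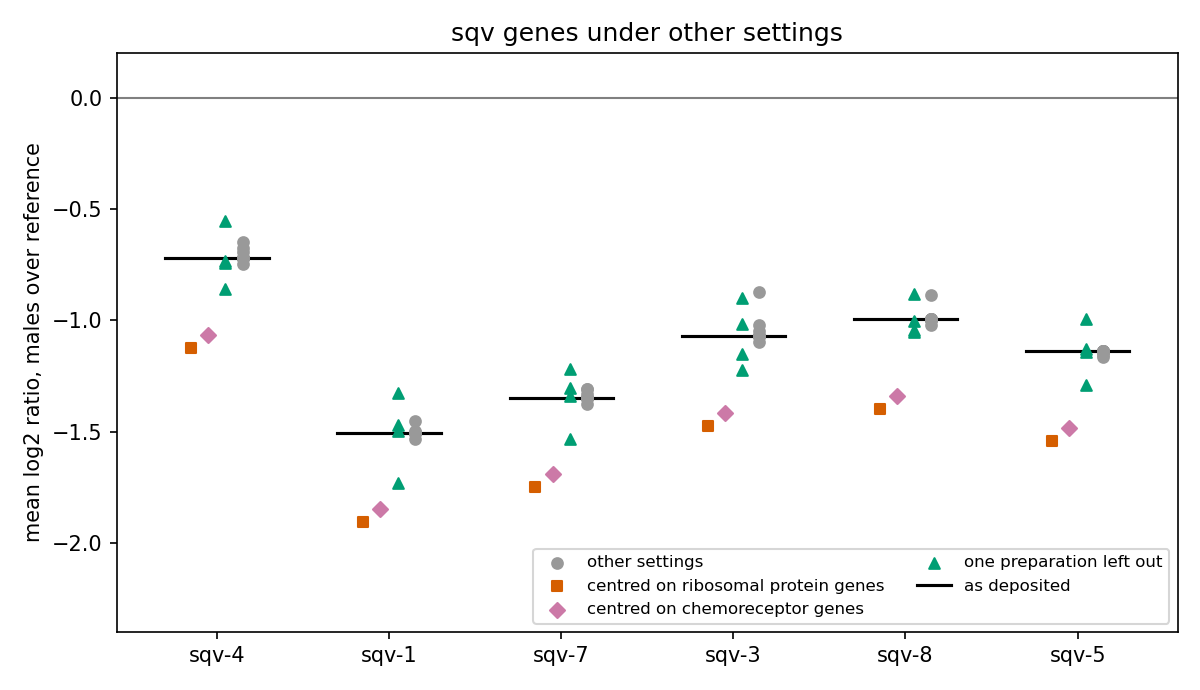
Mean log2 ratio of each sqv gene with the values as deposited (black line) and under the other settings (points: both centrings on gene classes, 1 preparation left out, and the remaining settings). Every mean lies below 0, from -1.91 for sqv-1 centred on ribosomal protein genes to -0.55 for sqv-4 without preparation 2.

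The partners of chondroitin synthesis and the genes of sugar nucleotide and sulfate supply form the nearest list to the sqv genes. Of 28 listed genes 24 were tested, with 7 lower in males, 5 higher and a median of -0.22, and that median is set beside 0.05 over all features. Those shares are near the 23.6% lower and 22.1% higher of all features. Without preparation 1 or preparation 3 the lower calls numbered 4, and the higher calls were 1 to 3 whichever preparation was left out. mig-22 encodes the partner that the sqv-5 enzyme needs for polymerization. It stood at -0.59, -1.47, -0.51 and -0.09 on preparations 1 to 4, and its mean of -0.67 ± 0.58 (SD, n = 4, limma adjusted p = 0.0568) missed the threshold. Preparation 2 was the lowest for mig-22, as for sqv-5, and preparation 4 the highest. It was called lower without preparation 4 (-0.86, adjusted p = 0.0337) and under 5 of the other settings, those that rescaled or weighted the arrays or modelled the dates, whereas without preparation 2 its mean was -0.40 (adjusted p = 0.113). Lower calls over all features numbered 4535 with the values as deposited. They were 6146 with array weights, 5182 and 4438 with the dates as a random block or a covariate, and 4623 and 4840 with scale or quantile normalization. The weight was 4.73 for preparation 3 and 0.31 to 1.08 for the others. The random block used a correlation within dates of -0.224. The carbohydrate sulfotransferase gene chst-1 stood at -0.03 ± 0.21 (SD, n = 4, adjusted p = 0.887).

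The lowest member was gna-2, an acetyltransferase gene of UDP-N-acetylglucosamine synthesis that the eggshell needs, at -1.64, -1.45, -1.54 and -2.08 on preparations 1 to 4. Its mean was -1.67 ± 0.28 (SD, n = 4, limma adjusted p = 0.000429), and no array stood near 0. gfat-2, of the first step of the same pathway, was lower too at -1.12 ± 0.47 (SD, n = 4, adjusted p = 0.00521). Their relatives did not follow: gna-1 was higher at 1.42 ± 1.17 (SD, n = 4, adjusted p = 0.0242), its preparation 3 reading 3.15 and the other arrays 0.68 to 1.09, and gfat-1 stood at 0.06 ± 0.22 (SD, n = 4, adjusted p = 0.798). Without preparation 3 the mean of gna-1 was 0.85 and still called, and centring on ribosomal protein genes (1.02, adjusted p = 0.157) or on chemoreceptor genes (1.08, with adjusted p = 0.116) ended the call. Array weights put that mean at 2.47.

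Genes of Golgi transport and of nucleotide breakdown also split. The nucleoside phosphatase gene ntp-1 was lower at -1.60 ± 0.80 (SD, n = 4, limma adjusted p = 0.00459), with arrays from -2.62 on preparation 2 to -0.67 on preparation 1. Of the family members listed as nucleotide sugar transporters, nstp-1, nstp-3 and nstp-8 were lower at -1.21, -0.63 and -0.57, and nstp-2, nstp-6 and nstp-4 were higher at 0.77, 0.68 and 0.49. Only nstp-1 of these 6 kept its call under each alternative setting run. pst-1, a transporter of the sulfate donor into the Golgi, was lower at -0.68 ± 0.31 (SD, n = 4, adjusted p = 0.0201) and lost its call without preparation 1 or preparation 3. pps-1, which makes that donor, was called higher at 0.49 ± 0.17 (SD, n = 4, adjusted p = 0.0436) and lost its call whichever preparation was left out. The Golgi diphosphatase gene mig-23 stood at -0.56 (adjusted p = 0.068) and the transporter gene srf-3 at 0.13 (adjusted p = 0.542).

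The enzymes that extend and modify heparan sulfate use the same linker. Of 9 listed genes 7 were tested, with 4 lower in males, none higher and a median of -0.87, beside 23.6% lower and 22.1% higher over all features. hst-1, which replaces acetyl by sulfate on the chain, stood at -1.23, -1.81, -1.76 and -1.56 on preparations 1 to 4. Its mean of -1.59 ± 0.26 (SD, n = 4, limma adjusted p = 0.000506) was close to that of sqv-1, and its arrays lay nearer to one another. The epimerase gene hse-5 had a mean of -1.43 ± 0.21 and the sulfotransferase gene hst-2 a mean of -1.21 ± 0.22 (SD, n = 4, adjusted p = 0.000668 and 0.00138). The polymerase gene rib-1 was lower at -0.87 ± 0.13 (SD, n = 4, adjusted p = 0.00443). Its partner rib-2 stood at -0.39 (adjusted p = 0.093), hst-3.1 at -0.40 (adjusted p = 0.13; -0.22 without preparation 4) and the sulfatase gene sul-1 at 0.30 (adjusted p = 0.183). The 4 called genes kept their calls under each alternative setting run.

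Core proteins, to which the chains are attached, did not move as a block. Of 24 chondroitin core proteins of the cpg class, 9 were tested, with 5 lower in males, 3 higher and a median of -0.72; over all features 23.6% were lower and 22.1% higher. cpg-3 was the lowest at -2.68, -1.80, -1.98 and -3.05 on preparations 1 to 4, a mean of -2.38 ± 0.59 (SD, n = 4, limma adjusted p = 0.00035). The order of its arrays was not that of the sqv genes, with preparation 2 the highest. The eggshell gene cpg-1 was lower at -1.42 ± 0.59 (SD, n = 4, adjusted p = 0.00323), whereas cpg-2, which works with it in the eggshell, was called higher at 0.58 ± 0.29 (SD, n = 4, adjusted p = 0.0342). The call of cpg-2 was lost with arrays centred on either gene class and without preparation 1, 3 or 4. cpg-18 was higher at 1.69 ± 0.44 (SD, n = 4, adjusted p = 0.000787) and kept its call under each setting run. Of the other members, cpg-4, cpg-8 and cpg-20 were lower at -0.93, -0.89 and -0.72, cpg-19 was higher at 0.99, and cpg-22 was not called at 0.66, a mean that was 0.13 without preparation 4 (2.26 on that array). The call of cpg-20 was lost without preparation 1 or 3, and that of cpg-19 without preparation 2 or 4 and with arrays centred on either gene class.

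All 6 listed heparan sulfate core proteins were tested, with 2 lower, 1 higher and a median of -0.24, few genes to set against the 23.6% and 22.1% of all features. The agrin gene agr-1 was lower at -0.84 ± 0.30 (SD, n = 4, limma adjusted p = 0.00883), and the glypican gene lon-2 was called lower at -0.60 ± 0.42 (SD, n = 4, adjusted p = 0.0474), a call lost without preparation 1, 2 or 3. The perlecan gene unc-52, a basement membrane component of muscle, stood at 1.11, -0.08, 2.26 and 2.91 on preparations 1 to 4. Its arrays straddled 0, and its call as higher (1.55 ± 1.32, SD, n = 4, adjusted p = 0.0259) was lost without preparation 3 or 4 and with arrays centred on either gene class. The syndecan gene sdn-1, the glypican gene gpn-1 and the collagen gene cle-1 stood at 0.12, -0.06 and -0.41 and were not called.

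**Figure D4:**
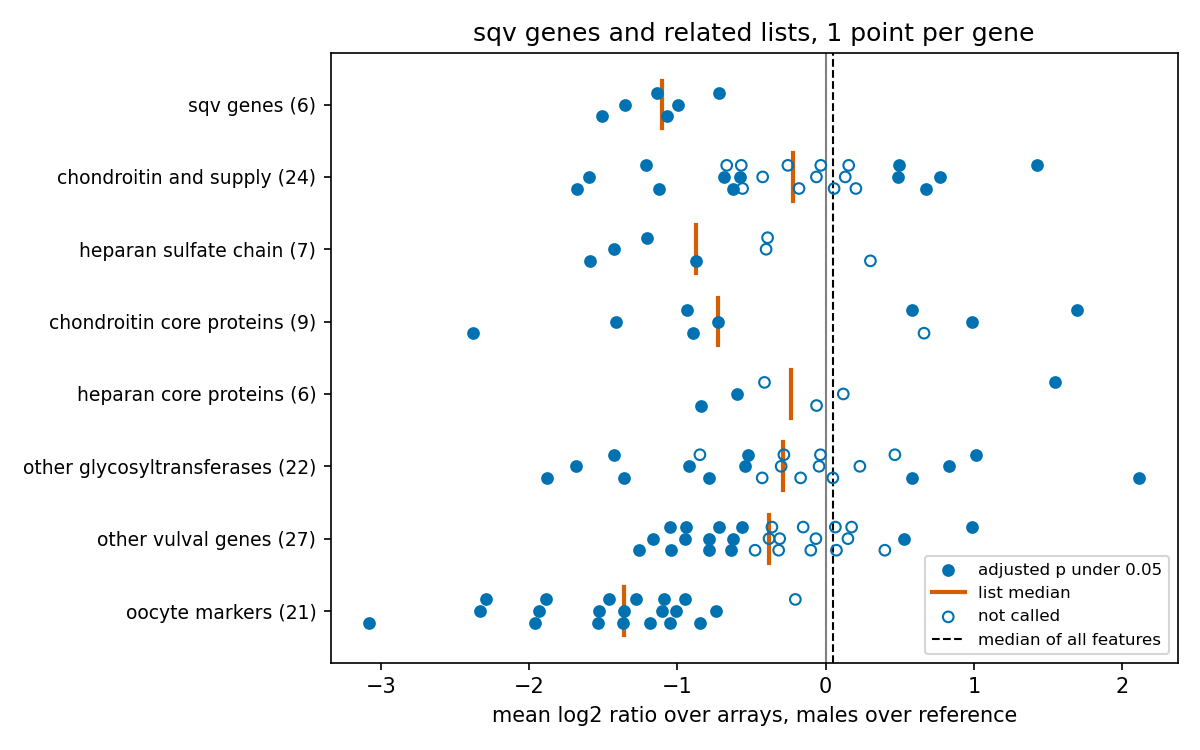
Mean log2 ratio per gene for the sqv genes, 4 lists of related pathway genes, other glycosyltransferases, other vulval genes and oocyte markers, with the number of genes tested in brackets. Filled points passed an adjusted p of 0.05, orange bars are list medians and the dashed line is the median of all features; all 6 sqv genes are filled and lie below 0, whereas 6 of the other 7 lists hold members on both sides of 0.

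Other glycosyltransferases were set beside them. Of 34 listed genes of protein and lipid glycosylation 22 were tested, with 8 lower in males, 4 higher and a median of -0.29, where 23.6% of all features were lower and 22.1% higher. The members with the largest ratios were gly-15 at 2.11 ± 0.90, ogt-1, which adds single sugars to proteins of the nucleus and cytosol, at -1.88 ± 0.60, and the fucosyltransferase gene fut-3 at -1.68 ± 0.34 (SD, n = 4, limma adjusted p = 0.00203, 0.000994 and 0.000535).

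Genes that pattern and shape the vulva by other means were set beside the sqv genes as well. Of 33 listed genes 27 were tested, with 12 lower in males, 2 higher and a median of -0.38, so that 13 did not pass. The shares over all features were 23.6% lower and 22.1% higher. The semaphorin gene smp-1, which guides vulval cells, stood at -1.25, -1.76, -1.16 and -0.87 on preparations 1 to 4, the same order at its ends as sqv-5. Its mean was -1.26 ± 0.37, beside let-653, which encodes a protein of the vulval lumen, at -1.16 ± 0.32 and the phosphatase gene lip-1, an inhibitor of mitogen-activated kinase signalling, at -1.05 ± 0.27 (SD, n = 4, limma adjusted p = 0.00207, 0.00235 and 0.00308). Of 10 tested genes listed as markers of the hermaphrodite uterus and spermatheca, 1 (ceh-18) was lower and 2 (lim-6 and emb-9) were higher. The list medians ran from -0.16 to 0.40 on the 4 arrays, and neither share of calls is above that of all features. Whether these genes report only those tissues was not tested, so the list gives no reading of the tissues themselves. The gene lin-29 was counted both in this list and in the vulval one. The mean of lim-6 was 1.70, and its call was lost without preparation 2 (1.04) or 4, and likewise under the chemoreceptor centring. The mean of emb-9 was 1.51, with 0.29 over the earlier pair of arrays and 2.72 over the later one. Its call was lost without preparation 3 or 4 (0.98 without preparation 4) and under either centring.

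Markers of other cell types were read on the same arrays. Of 24 oocyte and eggshell markers 21 were tested, and 20 were lower in males, with a median of -1.36. The shares to set beside this and the counts below are 23.6% lower and 22.1% higher over all features. The lowest were cav-1 at -3.08 ± 0.42, egg-2 at -2.33 ± 0.22 and oma-2 at -2.29 ± 0.67 (SD, n = 4, limma adjusted p = 6.48e-05, 9.29e-05 and 0.000576). The oocyte median was -1.69, -1.16, -1.06 and -1.71 on preparations 1 to 4, lowest on preparations 1 and 4, whereas the sqv median was lowest on preparation 2 and highest on preparation 1. The part of oocytes in the sqv ratios was not tested. Of the 24 sperm markers, msp-50 had the highest mean, 5.41 ± 1.10 (SD, n = 4), and of 16 tested markers of the male tail and male neurons 11 were higher and 1 lower, with list medians of 0.75 to 1.04 on the arrays. Among 3 tested yolk protein genes, vit-2 was lower and vit-6 higher, and the list median ran from 0.08 to 0.98. vit-6 no longer passed when preparation 3 was left out or under either centring on a gene class.

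The sqv genes lie on different chromosomes, sqv-1 on IV, sqv-3 on III, sqv-4 on V, sqv-5 on I, and sqv-7 and sqv-8 on II, by RefSeq's annotation of assembly WBcel235, which served only for names and neighbours. Of the 12 genes next to them, 7 were tested, with 4 lower in males and 1 higher. These are few genes to set against the 23.6% lower and 22.1% higher of all features. D2096.5, beside sqv-1, was higher in males at 4.55 ± 0.49 (SD, n = 4, limma adjusted p = 2.68e-05), and fzr-1, beside sqv-8, was not called at 0.36 ± 0.25 (SD, n = 4). On the other side of sqv-8, ZK1307.9 was lower at -1.18 ± 0.56, and lst-6, beside sqv-7, was lower at -1.07 ± 0.54 (SD, n = 4, adjusted p = 0.00647 and 0.00863). Next to sqv-3, vha-1 was not called at 0.22 ± 0.15 (SD, n = 4), and usp-46 was lower at -1.17 ± 0.16 (SD, n = 4, adjusted p = 0.00135). The annotated spans of usp-46 and sqv-3 overlap, as do those of tut-2 and sqv-4, with tut-2 at -0.74 ± 0.42 (SD, n = 4, adjusted p = 0.0228). Those of sqv-5 and T24D1.7, which was not tested, overlap too. Probe positions and strands were not used here, so whether a probe reads only one gene of such a pair was not tested.

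The named genes most like the sqv genes were sought by the distance between log2 ratios over the 4 arrays. Across 14652 other named genes with 4 values, the nearest to the mean profile of the 6 sqv genes were tbg-1, which encodes gamma-tubulin, vps-54, the heterochromatin protein gene hpl-2, the neuropeptide gene flp-9 and cec-3. Their distances were 0.10, 0.11, 0.11, 0.13 and 0.13, and their mean log2 ratios lay between -1.16 and -1.08. The sqv genes themselves lay between 0.30 and 0.84 from their own mean profile, and 1390 of the other genes were as near as the farthest of them.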

How the data were processed

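The members and gene lists were chosen with earlier results of these data known. The authors deposited 1 log2 ratio per probe and array; scaling, image analysis, background correction and spot filters are not given in the sources used here. The base was read from the values: as powers of 2, 100% of them (those under a ratio of 3) fell on steps of 0.001, within 0.01 of a step. Depth does not apply; 19424 to 19761 of 20000 probes per array had a value, and the 4 arrays limit the precision.

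Of 15655 probes with 1 platform symbol, names were updated by gene identifier (15569) or accession (7), and 79 kept the symbol. Probes of a gene were averaged per array. The 19214 features with values on at least 3 arrays were fitted with limma 3.58.1 (R 4.3.3; lmFit on an intercept, two-sided eBayes), and p-values were adjusted by Benjamini-Hochberg over all features. The script was tested on simulated data.

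Named were the 6 sqv genes, members of the 4 pathway lists, up to 3 called genes of largest ratio from each other list, the 5 nearest profiles, and chromosome neighbours. Alternatives were other centring, normalization, missing-value limits, moderation, array weights, single probes, a stricter threshold, the period in the titles, and leaving out each preparation. Figures used matplotlib 3.10.9.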

Additional observations from a re-analysis of the deposited data

Results flagged for a closer look

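In 88 sets of 4 array values, each of a named gene or a list median, 5 had 1 array further from the rest, relative to the range, than Dixon's 95% critical value allows. Chance flags about 1 in 20 such sets, and none of the 6 sqv genes was among them. gna-1 stood at 3.15 on preparation 3, against 0.68 to 1.09 on the other arrays. msp-59 stood at 4.33 on preparation 4 and at 5.41 to 5.61 elsewhere. ceh-18 stood at -0.47 on preparation 4, with -1.13 to -1.08 on the others. cwp-2 stood at 2.05 on preparation 2 and at 3.95 to 4.30 elsewhere. The median of the genes listed as uterus and spermatheca markers was 0.40 on preparation 4, and -0.16 to -0.09 on the others.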

How the results depend on the processing

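Of the 102 repeats of the 6 sqv genes (17 settings each), 100 kept direction and call, including some that could hardly change either. The exceptions were sqv-4 at an adjusted p of 0.01 (-0.72, adjusted p = 0.021) and without preparation 3 (-0.73, adjusted p = 0.08); leaving out 1 preparation gave sqv-4 means of -0.86 to -0.55. The cause was not tested. Each sqv gene had 1 probe and a value on every array. Its mean was therefore fixed under single probes and the missing-value limits, where only other features could move its adjusted p. Centring on ribosomal protein or chemoreceptor genes put the sqv median at -1.51 or -1.45, settings that shift every feature down and so do not test the direction. No paired analysis was possible because the arrays form 1 group. With no spot intensities used here, signal over background could not be weighed.

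The calls were 4535 lower and 4242 higher (51.7% lower). They were 2683 and 2393 at an adjusted p of 0.01, and 2933 to 4213 lower and 2759 to 3784 higher with 1 preparation left out, fewest without preparation 3. With arrays centred on ribosomal protein or chemoreceptor genes, 1624 or 2016 were higher, and 73.6% or 73.9% of the calls were lower.

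Centred on ribosomal protein genes, the list medians were -0.59 (chondroitin and supply), -1.28 (heparan sulfate chain), -0.64 (heparan core proteins), -1.13 (chondroitin core proteins), -0.69 (other glycosyltransferases), -0.78 (other vulval genes), -1.76 (oocyte), 4.37 (sperm), -0.43 (uterus and spermatheca) and 0.49 (male tail and neurons). Centred on chemoreceptor genes they were -0.56, -1.22, -0.58, -1.07, -0.63 and -0.72 for the first 6 lists, -0.37 for uterus and spermatheca and 0.55 for male tail and neurons. For chondroitin and supply the median was -0.18 over genes with values on 4 arrays, and -0.27 to -0.21 with 1 preparation left out. Its lower calls numbered 4 at an adjusted p of 0.01, 11 with array weights and 4 to 8 with 1 preparation left out (4 without preparation 1 or 3). Its higher calls numbered 3 with arrays centred on all features or the period as a covariate, 0 under either gene-class centring or at 0.01, and 1 to 3 with 1 preparation left out.

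Heparan core proteins had 1 lower call at 0.01, with scale normalization or with the period as a covariate, and 1 to 2 with 1 preparation left out. Their higher calls were 0 at 0.01 or under either gene-class centring, and 0 to 1 with 1 preparation left out. Chondroitin core proteins had 1 higher call in those same 3 settings and 1 to 2 with 1 preparation left out. Other glycosyltransferases had 4 lower calls and 1 higher at 0.01, 1 higher under either centring, and 5 to 7 lower and 2 to 4 higher with 1 preparation left out. Other vulval genes had 6 lower calls at 0.01, 0 higher there or under either centring, 1 higher with the period as a covariate, and 0 to 1 with 1 preparation left out. Uterus and spermatheca markers had 3 lower calls centred on chemoreceptor genes and 4 with array weights; higher calls were 0 at 0.01 or centred on chemoreceptor genes, 1 centred on ribosomal protein genes and 0 to 2 with 1 preparation left out. Yolk genes had 0 calls at 0.01, 0 higher under either centring and 0 to 1 with 1 preparation left out. Male tail and neuron markers had 0 lower calls at 0.01 or centred on ribosomal protein genes, 2 with array weights and 0 to 1 with 1 preparation left out; higher calls were 7 at 0.01, 5 or 6 under the centrings on ribosomal protein or chemoreceptor genes, and 7 to 10 with 1 preparation left out. Of 53 called genes checked singly, 35 kept their calls under all settings run for them and 18 did not.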
